A study of Mus musculus with 12 samples.

Results

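Transcripts of the proteasome's subunits, activators and assembly factors were followed in mouse liver through 42 genes of the 20719 measured: Psma1 to Psma7, Psmb1 to Psmb10, Psmc1 to Psmc6, Psmd1 to Psmd14, Psme1 to Psme4 and Pomp. They were taken by symbol, and where a symbol had several probe sets, as in 6 of the 42, the set with the largest 12-array mean stood for it. The rule uses no measured value beyond that mean, and all 42 were in the tests. The proteasome is the large protease that degrades ubiquitin-tagged proteins in the cytosol and nucleus. Its 20S core is a barrel of alpha and beta rings with the active sites inside, and its 19S cap holds a ring of ATPases that unfold substrates, subunits that dock ubiquitin chains and a lid that removes them. In liver, the proteasome works beside autophagy, in which lysosomes degrade cell contents during fasting.

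The livers of 12 mice were profiled, 1 array per mouse with 4 groups of 3 animals. Mice on a C57BL/6 background, wild-type (WT) or knock-out (KO), were either fed standard chow or starved for 24 h with free water. The KO liver is labelled deficient in chaperone-mediated autophagy, the uptake of single cytosolic proteins through the lysosomal receptor LAMP2A; it came from crossing Albumin-Cre mice, whose Cre is active in hepatocytes, with mice carrying loxP sites on both sides of exon 9A of Lamp2, in several bred lines. Whether Lamp2 was also changed in other cell types of the liver was not given. Sex, age and whether the WT mice carried Cre or loxP alleles were not given. The comparisons ask how starvation and loss of this pathway change the liver, and whether the response to starvation depends on it. Values are log2 expression values, so that a difference of 1 is 2-fold. The Lamp2 probe set read 12.24 to 12.81 over the 12 arrays and KO minus WT was 0.24 (SE 0.14) in fed and -0.07 (SE 0.14) in starved liver (limma adjusted p = 1 for both). Its coverage of exon 9A was not given, so it does not check the deletion. Arrays also differed in the spread of their values: the interquartile range ran from 2.47 to 2.97, and the 6 wider arrays (WT fed F1, WT starved S3 and S4, KO fed F6, KO starved S6 and S7) held 2 of the 6 fed but 4 of the 6 starved mice. Results are therefore also given within the 6 wide and the 6 narrow arrays. Of 9 hepatocyte markers all had means from 11.95 to 14.24, and none passed the threshold for starvation.

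Starvation raised a minority of these genes, most of them in the 19S cap, and lowered 1. Averaged over both genotypes, 7 of the 42 rose and 1 fell at an adjusted p under 0.05 (limma, Benjamini-Hochberg over all genes), where 2.32% of all genes rose and 2.84% fell. The 7 were Psmd9, Psmd4, Psmc4, Psmd12, Psma5, Psmc1 and Psmc3, with differences from 0.37 to 0.81, and the gene that fell was Psmb10, by 0.76. Of the 17 genes of the cap's base and lid among the 42, 5 rose and all 17 differences were above 0, with a median of 0.38. Outside the 42, the lid subunit Shfm1 gave -0.29 and the ubiquitin receptor Adrm1 of the cap gave 0.39. Of the 14 genes of the 20S core without its inducible catalytic subunits, 1 rose and 13 differences were above 0, with a median of 0.14. This gap between cap and core was not steady within arrays of 1 spread. Medians of alpha ring, structural beta and constitutive catalytic genes were 0.38, 0.32 and 0.23 among wide and 0.22, 0.225 and 0.28 among narrow arrays. Those of ATPase ring, other base genes and lid were 0.42, 0.30 and 0.31 among wide and 0.37, 0.53 and 0.33 among narrow arrays. The 3 inducible catalytic genes all had differences below 0, with a median of -0.39. Over the 42 genes the median was 0.25, with 33 above 0, against -0.02 over all genes tested. These p-values measure the spread between mice, and in tissue RNA a change in the share of a cell type cannot be told apart from a change in RNA per cell.

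**Figure D1:**
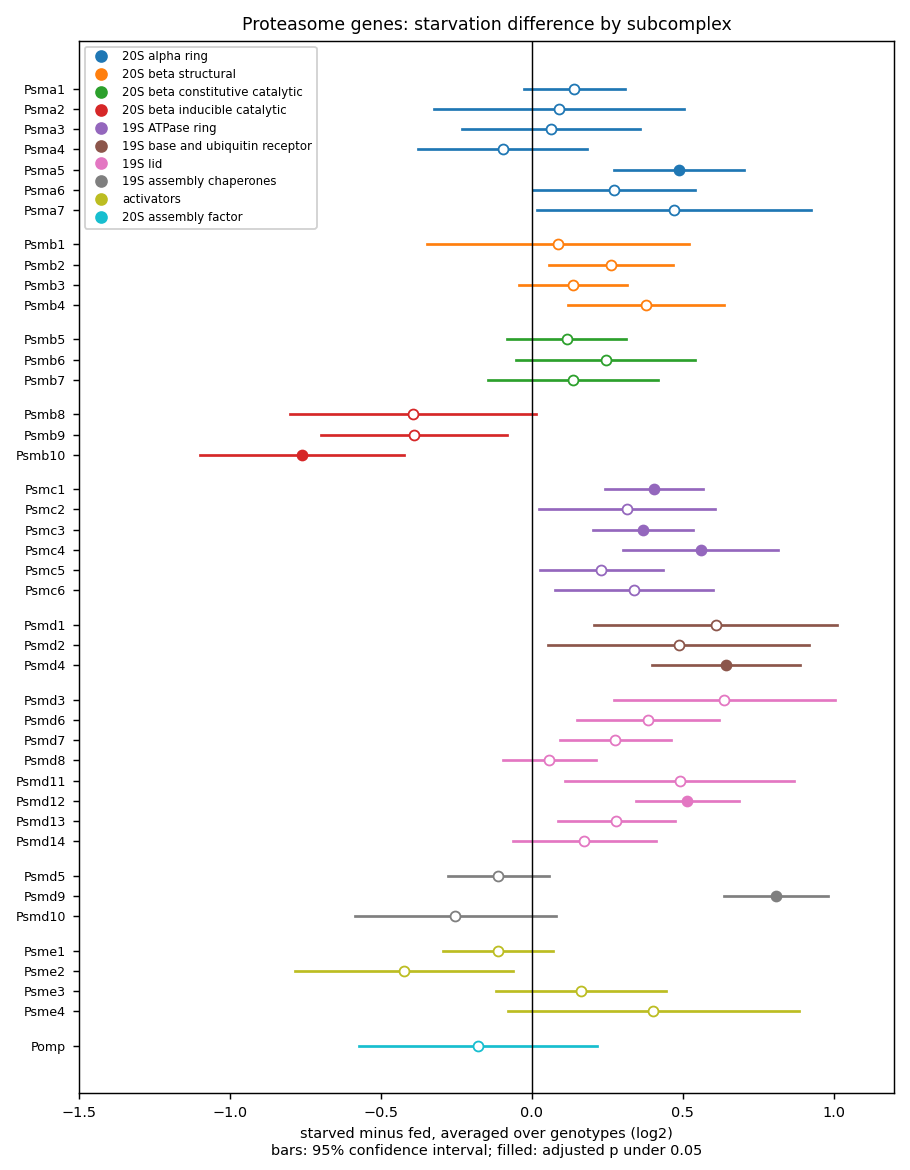
Difference between starved and fed liver, averaged over genotypes (horizontal axis, log2), for 42 genes grouped by subcomplex. Points are limma estimates, bars 95% confidence intervals, and filled points mark the 8 genes past the threshold, of which 5 are in the 19S base and lid and the farthest to the left is Psmb10 at -0.76.

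The largest averaged difference of the 42 was that of Psmd9, a chaperone that helps assemble the ATPase ring and is absent from the finished proteasome. Psmd9 measured 7.81, 8.02 and 7.96 in WT fed, 8.83, 8.78 and 8.76 in WT starved, 7.77, 7.64 and 7.93 in KO fed and 8.69, 8.43 and 8.50 in KO starved liver. All 6 starved mice lay above all 6 fed mice, with 8.02 the highest fed and 8.43 the lowest starved value. The averaged difference was 0.81 (SE 0.08), a 1.75-fold rise (limma adjusted p = 0.000289). It was 0.91 among the wide and 0.80 among the narrow arrays and passed the threshold in each. The other chaperones of the same step did not pass: Psmd5 gave -0.11 (SE 0.08) and Psmd10, also known as gankyrin, -0.25 (SE 0.15) (limma adjusted p = 0.509 and 0.439).

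Promoters of some genes that passed, and of Psmb8, an inducible catalytic subunit that did not, are shown. A shared transcription factor site is one feature the choice of the 42 genes did not use. Psmc4, Psmc3 and Psma5 also passed and are not shown. Each risen gene shown holds a marked site, so the stretches do not stand for all genes that passed. NFE2L1, the factor known to raise proteasome genes when the proteasome is inhibited, binds antioxidant response elements, and ETS factors bind the promoters of many broadly expressed genes. RefSeq entries of build GRCm38.p6 covered 36 of the 42 genes from 250 bases before to 50 after the start site. Capitals mark a match to the antioxidant response element core TGACNNNGC in the first pair, to the ETS site CCGGAAG in the next pair and to the gamma interferon activated site TTCNNNGAA in Psmb8; for Psmd12 and Psmc1 the match is on the opposite strand, and Psmb10 has no match and is shown as the gene that fell. Each stretch of 80 bases is written 5′ to 3′ on the strand of its gene.
Psmd9, chr5:123228110-123228189 (+ strand): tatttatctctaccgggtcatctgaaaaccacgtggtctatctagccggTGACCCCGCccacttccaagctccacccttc
Psmd12, chr11:107479278-107479357 (+ strand): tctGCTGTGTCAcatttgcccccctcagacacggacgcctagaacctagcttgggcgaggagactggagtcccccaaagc
Psmd4, chr3:95042697-95042776 (- strand): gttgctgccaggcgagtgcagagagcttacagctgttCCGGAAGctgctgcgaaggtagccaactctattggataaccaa
Psmc1, chr12:100110122-100110201 (+ strand): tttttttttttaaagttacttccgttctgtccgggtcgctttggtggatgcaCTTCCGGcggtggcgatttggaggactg
Psmb8, chr17:34198062-34198141 (+ strand): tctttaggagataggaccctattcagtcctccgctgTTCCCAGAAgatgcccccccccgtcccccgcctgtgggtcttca
Psmb10, chr8:105938393-105938472 (- strand): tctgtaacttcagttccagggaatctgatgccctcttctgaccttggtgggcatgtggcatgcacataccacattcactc
Counted from the start site, the match began at base -31 in Psmd9 and at base -247 in Psmd12. Over both strands, the core TGACNNNGC was in 6 of the 36 promoters (16.7%) and in 14% of 27025 promoters of all genes. CCGGAAG was in 13 of the 36 (36.1%), Psmd4, Psmc1 and Psmd12 among them, and in 9.93% of all promoters. TTCNNNGAA was in 2 of the 36 (5.56%), Psmb8 and Psmd2, against 9.55%. The nuclear respiratory factor 1 site GCGCNTGCG was in 6 (16.7%, against 7.12%), the interferon regulatory factor site GAAANNGAA in 7 (19.4%, against 9.76%), CCAAT in 13 (36.1%, against 41.1%) and TGACGTCA, the cAMP response element, in 0 (0%, against 2.03%). Matches to different motifs overlapped in Psma6 and Psmc2, by 1 base each between an ETS site and a CCAAT box. Of the 7 genes that rose, 6 had a promoter entry, and 2 of these held TGACNNNGC and 3 CCGGAAG. The interferon regulatory factor site was also in 2 of these 6, CCAAT in 2 and the nuclear respiratory factor 1 site in 1. TTCNNNGAA and TGACGTCA were in 0. A match is a description of the letters, and other lengths of some motifs were looked at and are not given.

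In the ATPase ring of the cap, whose subunits Psmc1 to Psmc6 unfold the substrate and open the core, 3 of 6 genes rose. Psmc4 measured 10.22, 9.82 and 9.99 in WT fed, 10.81, 10.93 and 10.31 in WT starved, 10.21, 10.23 and 10.01 in KO fed and 10.45, 10.61 and 10.73 in KO starved liver. Every starved value was above every fed value, the closest being 10.31 in WT starved replicate 3 against 10.23 in KO fed F6, and the averaged difference was 0.56 (SE 0.12) (limma adjusted p = 0.0183). This call was lost without KO starved S6 or S7 and among the narrow arrays, where the difference was 0.37 against 0.54 among the wide ones. Psmc1 measured 9.71, 9.60 and 9.72 in WT fed, 10.12, 10.26 and 10.02 in WT starved, 9.83, 9.61 and 9.71 in KO fed and 10.15, 9.98 and 10.07 in KO starved liver. Fed and starved mice did not overlap, and the difference was 0.40 (SE 0.07) (limma adjusted p = 0.00924), 0.45 among wide arrays, where it passed, and 0.37 among narrow ones, where it did not. Its second probe set gave 0.45, and since a near-identical copy can share its signal, the locus behind it is uncertain.

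Psmc3 measured 8.73, 8.58 and 8.83 in WT fed, 9.17, 9.29 and 9.25 in WT starved, 8.91, 8.83 and 9.09 in KO fed and 9.24, 9.08 and 9.15 in KO starved liver. Here KO fed F8, at 9.09, was level with KO starved S6, at 9.08, so fed and starved mice overlapped. The averaged difference was 0.37 (SE 0.08) (limma adjusted p = 0.0163), and the call was lost under cyclic loess, with a trended and robust prior, without KO fed F5, and within wide and within narrow arrays alone. Psmc2, Psmc5 and Psmc6 had differences of 0.31 (SE 0.13), 0.23 (SE 0.09) and 0.34 (SE 0.12) and did not pass (limma adjusted p = 0.241, 0.217 and 0.151). All 6 differences of the ring were above 0 in each genotype, with a median of 0.46 in WT and 0.24 in KO liver.

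The base of the cap also holds Psmd1 and Psmd2, scaffolds that dock shuttle factors, and Psmd4, a receptor for ubiquitin chains. Psmd4 measured 9.06, 8.85 and 9.22 in WT fed, 9.75, 10.05 and 9.46 in WT starved, 9.26, 9.13 and 9.00 in KO fed and 9.85, 9.56 and 9.71 in KO starved liver. The highest fed value was 9.26 and the lowest starved value 9.46, with a difference of 0.64 (SE 0.11) (limma adjusted p = 0.00726). The difference was 0.67 among wide and 0.57 among narrow arrays, and passed only in the former. Psmd1 had a mean difference of similar size, 0.61 (SE 0.18), but measured 10.01 to 10.97 in the 6 fed and 10.79 to 11.44 in the 6 starved mice and did not pass (limma adjusted p = 0.0895). Its fed values were high in the 2 wide arrays, 10.97 in WT fed F1 and 10.94 in KO fed F6, and at most 10.41 in the other fed mice. Psmd2 showed the same order, with 10.97, 9.97 and 10.41 in WT fed and 10.48, 11.11 and 10.34 in KO fed liver, and a difference of 0.49 (SE 0.20) (limma adjusted p = 0.217). Within wide arrays the differences of Psmd1 and Psmd2 were 0.30 and 0.16, and within narrow ones 0.53 and 0.39.

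Of the 8 lid genes among the 42, 1 rose. It was Psmd12, a scaffold subunit of the lid, which measured 9.92, 9.77 and 9.89 in WT fed, 10.45, 10.68 and 10.34 in WT starved, 10.07, 10.03 and 9.85 in KO fed and 10.37, 10.35 and 10.43 in KO starved liver. The highest fed value was 10.07 and the lowest starved value 10.34, and the difference was 0.51 (SE 0.08) (limma adjusted p = 0.00353), 0.51 among wide arrays, where it passed, and 0.46 among narrow ones, where it did not. Psmd3, another scaffold, had a larger difference of 0.64 (SE 0.17) that narrowly missed the threshold (limma adjusted p = 0.0516): its starved values ran from 9.10 to 9.98, and the lowest, WT starved replicate 3, lay within the fed range of 8.62 to 9.29. Psmd7 was the only lid gene other than Psmd12 whose fed and starved mice did not overlap, yet its difference of 0.28 (SE 0.08) did not pass (limma adjusted p = 0.0925). Psmd6, Psmd11 and Psmd13 gave 0.38, 0.49 and 0.28 (limma adjusted p = 0.0644, 0.153 and 0.105). The smallest differences were those of Psmd14, the deubiquitinase of the lid, at 0.17 (SE 0.11), and of Psmd8 at 0.06 (SE 0.07). Counting all 42 genes, 7 had every starved mouse above every fed mouse and 1, Psmb10, had every starved mouse below, where 1.69% and 2.18% of all genes did.

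**Figure D2:**
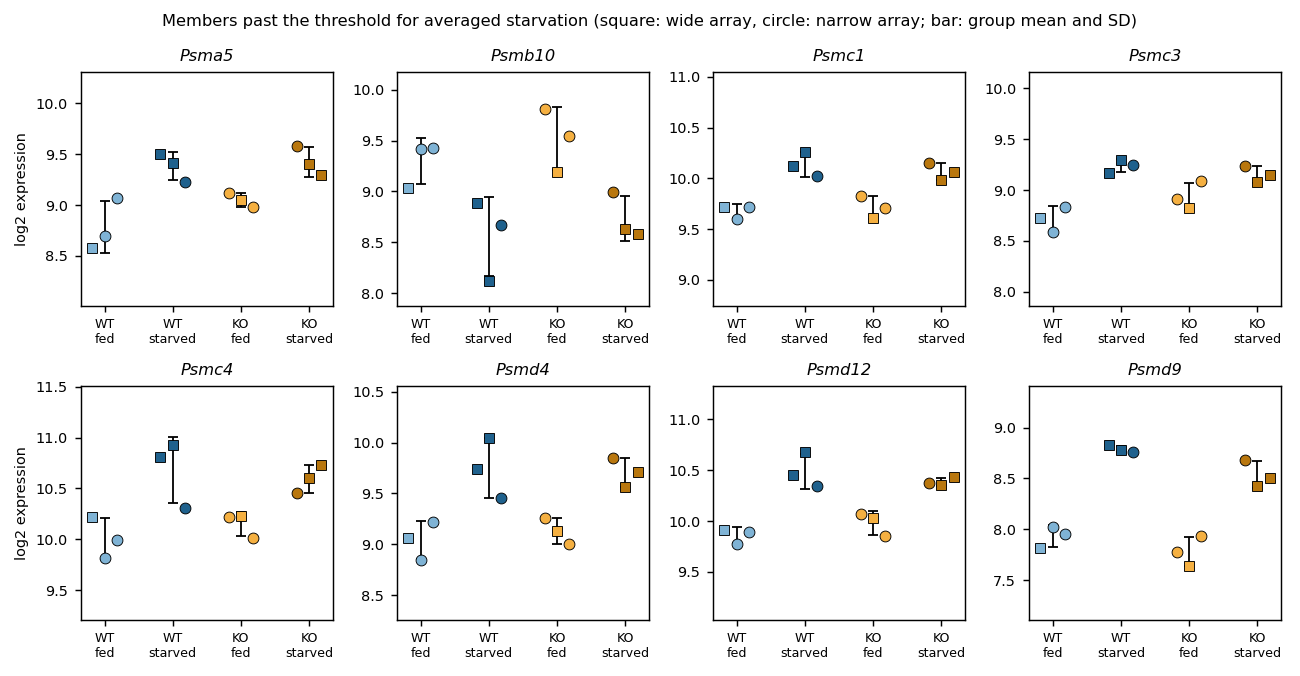
Log2 expression (vertical axes, each spanning the same log2 range) of the 8 genes past the threshold in each of 12 livers by group. Squares are wide and circles narrow arrays, and bars give the group mean and SD; in 7 panels the starved mice lie above the fed mice, with overlap in Psmc3, and in the Psmb10 panel they lie below.

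In the 20S core, the 7 alpha genes form the outer rings that gate the barrel. Psma5 measured 8.58, 8.70 and 9.07 in WT fed, 9.50, 9.42 and 9.23 in WT starved, 9.12, 9.05 and 8.98 in KO fed and 9.58, 9.40 and 9.30 in KO starved liver. The WT fed mice F1 and F2 were lowest, all starved mice were above all fed mice, and the averaged difference was 0.49 (SE 0.10) (limma adjusted p = 0.015). It was 0.59 among wide and 0.44 among narrow arrays and passed in neither subset. A second probe set gave 0.57. Psma7 had nearly the same mean difference, 0.47 (SE 0.21), and did not pass (limma adjusted p = 0.264): it measured 9.00 in WT fed F1 and 9.29 in KO fed F6, the 2 wide fed arrays, and 9.78 to 10.05 in the other fed mice. The other alpha genes ranged from -0.10 for Psma4 to 0.27 for Psma6, and none passed. For Psma3, 3 probe sets gave 0.06, 0.06 and 0.08, and the second sets of Psmb3, Psmd2 and Psme2 gave 0.16, 0.475 and -0.53, against 0.14, 0.49 and -0.42 for the sets used.

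The beta rings hold the active sites. Their 4 structural genes, Psmb1 to Psmb4, had differences from 0.09 to 0.38 and none passed (lowest limma adjusted p = 0.1, Psmb4). The 3 constitutive catalytic genes were Psmb6, with caspase-like, Psmb7, with trypsin-like, and Psmb5, with chymotrypsin-like activity. Their differences were 0.24 (SE 0.14), 0.14 (SE 0.13) and 0.11 (SE 0.09) (limma adjusted p = 0.393, 0.657 and 0.577). Psmb5 was the steadiest of them in starved liver, with 12.49, 12.52 and 12.50 in WT and 12.54, 12.49 and 12.50 in KO mice.

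Interferon-gamma is known to induce the replacements of these 3 subunits, which form the immunoproteasome: Psmb9 takes the place of Psmb6, Psmb10 of Psmb7 and Psmb8 of Psmb5. All 3 of their averaged differences were below 0, and Psmb10 fell. Psmb10 measured 9.03, 9.42 and 9.43 in WT fed, 8.88, 8.12 and 8.67 in WT starved, 9.81, 9.19 and 9.55 in KO fed and 8.99, 8.63 and 8.58 in KO starved liver. Every starved mouse was below every fed mouse, though only from 8.99 in KO starved S5 to 9.03 in WT fed F1. The difference was -0.76 (SE 0.15), which makes the fed level 1.69 times the starved level (limma adjusted p = 0.0152); it was -0.72 among narrow arrays, where it passed, and -0.56 among wide ones, where it did not (limma adjusted p = 0.165).

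Psmb9 measured 8.28, 8.43 and 8.30 in WT fed, 8.43, 7.86 and 8.19 in WT starved, 8.72, 8.04 and 8.77 in KO fed and 8.10, 7.87 and 7.78 in KO starved liver. WT fed and WT starved mice overlapped, while KO fed F5 and F8 were above every KO starved mouse and KO fed F6, a wide array, was not, and the averaged difference was -0.39 (SE 0.14) (limma adjusted p = 0.158). Psmb8 measured 7.52, 7.98 and 7.82 in WT fed, 7.82, 7.04 and 6.97 in WT starved, 8.04, 7.43 and 8.19 in KO fed and 7.94, 7.48 and 7.35 in KO starved liver, with overlap in both genotypes and a difference of -0.39 (SE 0.19) (limma adjusted p = 0.3). For Psmb8 the difference was -0.55 within narrow and -0.05 within wide arrays.

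The balance of both catalytic sets was expressed as the mean deviation of the 3 inducible genes from their own 12-array means minus the same for the 3 constitutive genes. It was 0.30, 0.58 and 0.11 in WT fed, 0.06, -0.58 and -0.52 in WT starved, 0.50, 0.14 and 0.41 in KO fed and -0.27, -0.33 and -0.41 in KO starved liver. All 6 starved mice were below all 6 fed mice, with the nearest values 0.11 in WT fed F4 and 0.06 in WT starved S3. The group means were 0.33 ± 0.24 in WT fed, -0.34 ± 0.36 in WT starved, 0.35 ± 0.19 in KO fed and -0.34 ± 0.07 in KO starved liver (SD, n = 3 mice each). Psmb10 takes part in this score, so it is no separate evidence.

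Immune cells carry the inducible subunits at a high level, so their markers were read beside them. None of 10 macrophage and Kupffer cell markers and none of 9 lymphocyte markers passed for averaged starvation; their medians were -0.10 and -0.07, with 8 of 10 and 8 of 9 below 0. The macrophage markers had a mean level of 8.77 to 9.27 in WT fed, 8.44 to 9.34 in WT starved, 8.81 to 8.84 in KO fed and 8.69 to 8.84 in KO starved mice, and the lymphocyte markers 6.07 to 6.21, 5.85 to 6.23, 6.04 to 6.09 and 5.92 to 6.09. Their part in the Psmb10 result was not tested. Of 16 measured genes of antigen processing and the interferon response, 2 fell, the interferon-induced Ifit3 by 1.11 and Isg15 by 0.58 (limma adjusted p = 0.0441 and 0.0437), and the other 14 did not pass, from -1.04 for Ifit1 to 0.29 for Nlrc5. The list median was -0.04, and Irf1, a factor that induces the inducible subunits, gave -0.49 (SE 0.17, limma adjusted p = 0.156).

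The activators dock on the core in place of the 19S cap. Psme1 and Psme2 form the interferon-induced PA28 ring, Psme3 forms a nuclear ring of its own and Psme4 encodes PA200. None passed. Psme2 had the lowest difference, -0.42 (SE 0.16) (limma adjusted p = 0.197), with a mean of 10.65 in fed and 10.23 in starved liver, and its partner Psme1 gave -0.11 (SE 0.08). Psme3 gave 0.16 (SE 0.13) and Psme4 0.40 (SE 0.22) (limma adjusted p = 0.585 and 0.387). Psme4 was high in wide arrays: it measured 10.55 and 10.63 in the wide fed arrays and 9.50 to 9.88 in the narrow ones, and its starvation difference was 0.02 within wide and 0.30 within narrow arrays. Pomp, which guides assembly of the beta ring, gave -0.18 (SE 0.18) (limma adjusted p = 0.687), 0.03 within wide and 0.01 within narrow arrays.

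Summarised by array, as the mean deviation of a subcomplex's genes from their own 12-array means, the ATPase ring was -0.23, -0.39 and -0.15 in WT fed, 0.20, 0.35 and 0.07 in WT starved, -0.05, -0.18 and -0.11 in KO fed and 0.21, 0.09 and 0.17 in KO starved liver. The lid was -0.15, -0.40 and -0.12 in WT fed, 0.23, 0.35 and 0.07 in WT starved, -0.11, -0.05 and -0.23 in KO fed and 0.13, 0.10 and 0.16 in KO starved liver. For both, each of the 6 starved mice was above each of the 6 fed mice. The alpha ring overlapped: it was -0.47, -0.05 and 0.03 in WT fed, -0.01, 0.01 and 0.30 in WT starved, 0.05, -0.30 and 0.12 in KO fed and 0.36, 0.02 and -0.06 in KO starved liver, lowest in the 2 wide fed arrays and highest in the 2 narrow starved arrays.

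**Figure D3:**
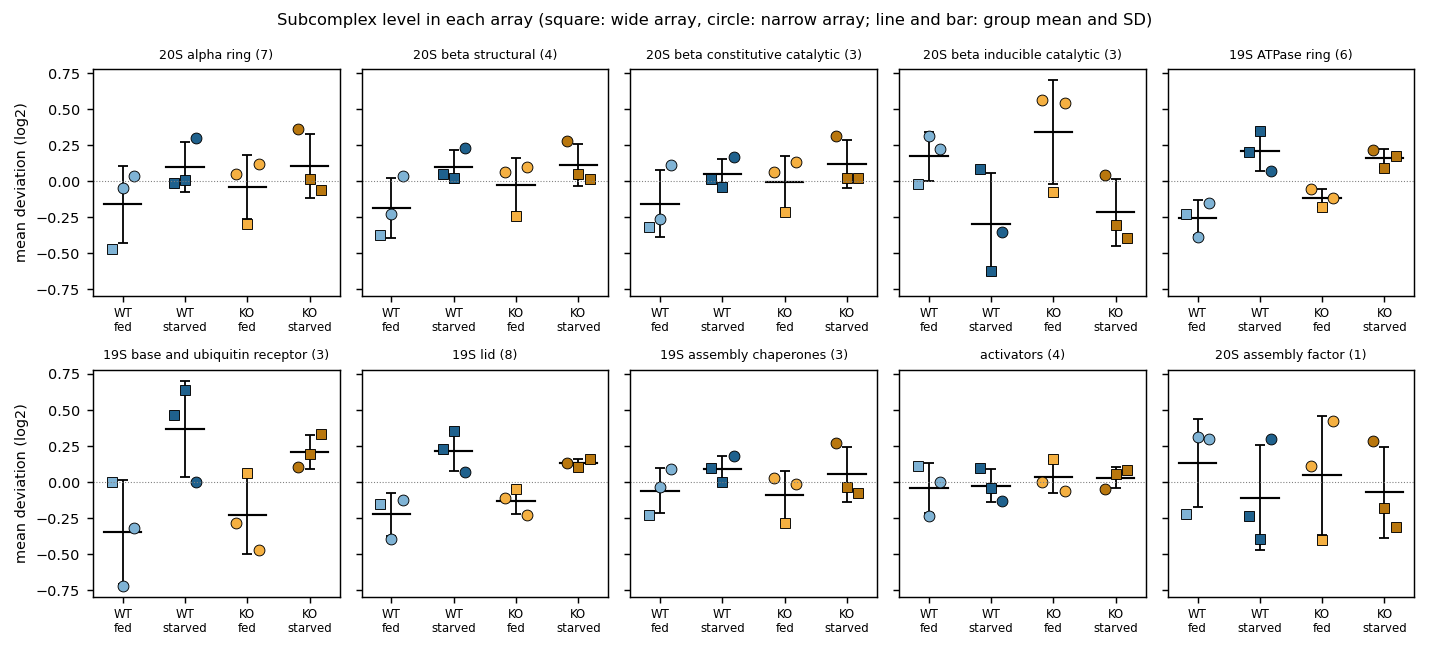
Mean deviation of each subcomplex's genes from their own means over 12 arrays (vertical axes, log2; number of genes in brackets) in each liver by group. Squares are wide and circles narrow arrays, lines and bars give the group mean and SD; the 19S ATPase ring and lid separate starved from fed mice, while in the 20S alpha ring squares lie below circles in every group.

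The spread of an array's values went with genes in both directions, among the 42 and among all genes. In the difference between wide and narrow arrays, with the 4 groups in the fit, 7 of the 42 genes were higher and 15 lower in wide arrays at an adjusted p under 0.05, where 20.5% and 15.4% of all genes were. The share higher was below that of all genes and the share lower above it. Wide and narrow were set from these same values, so calls between them were partly built in. The cut fell between 2.81 in KO fed F5 and 2.89 in WT fed F1, without a clear gap. Lower were 10 genes of the 20S core, led by Psmb1 (-0.67), Psma7 (-0.66) and Psma2 (-0.63), as well as Pomp (-0.59). Higher were Psme4 (0.72), Psmd2 (0.62), Psmd1 (0.57), Psmd11 (0.54), Psmd3 (0.47), Psme3 (0.36) and Psmc4 (0.30). Psmd9, Psmd12, Psmd4, Psmc1, Psmc3 and Psma5 were within 0.15 of 0 and did not pass.

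With spread as a block in the fit, 19 of the 42 genes rose and 1 fell, against 4.73% and 6.06% of all genes. These 20 included all 8 genes above, and the 12 gained were Psma2, Psma6, Psma7, Psmb1, Psmb4, Psmb7, Psmc6, Psmd1, Psmd3, Psmd6, Psmd11 and Psmd13, 6 of them in the core. The median of the alpha ring was then 0.30, of the ATPase ring 0.40 and of the lid 0.31, against 0.14, 0.35 and 0.33 without the block. In the 6 wide arrays alone, 11 rose and 0 fell, against 2.5% and 2.75% of all genes, and in the 6 narrow arrays alone Psmd9 rose and Psmb10 fell, against 1.45% and 1.57%. Each of these fits has terms for feeding and genotype without an interaction, and 1 mouse in 2 of its 4 groups, which is assumed to vary like the others. The median over the 42 genes was 0.25 within wide and 0.24 within narrow arrays.

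**Figure D4:**
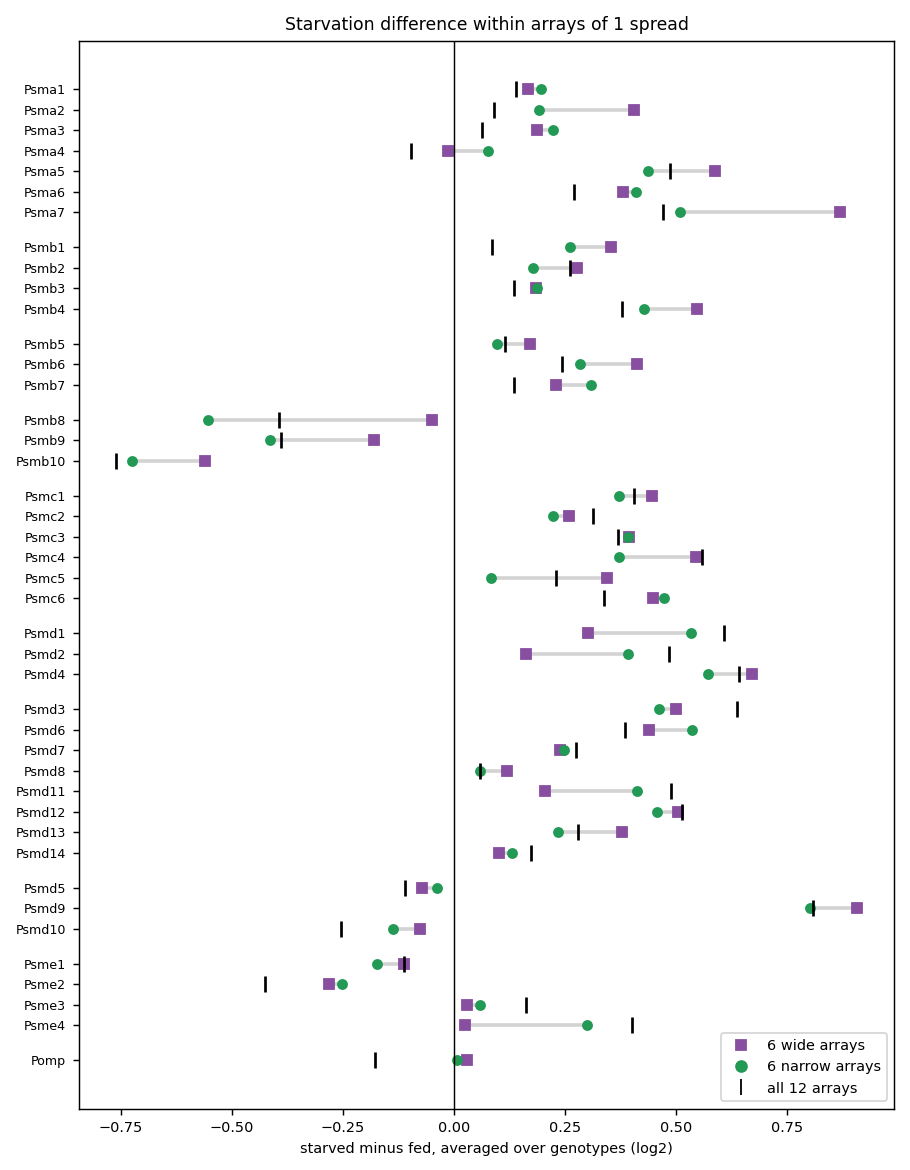
Difference between starved and fed liver, averaged over genotypes (horizontal axis, log2), of each gene in all 12 arrays (black ticks), the 6 wide arrays (squares) and the 6 narrow arrays (circles). For most 20S core genes both subsets lie to the right of the pooled value, for Psmd1, Psmd2, Psmd11 and Psme4 to its left, and for Psmd9 and Psmd12 all 3 values are close together.

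Within each genotype fewer genes passed. In WT liver, 3 of the 42 rose and 0 fell, against 0.661% and 0.748% of all genes. An unadjusted limma p under 0.05 was reached by 21 of the 42 and by 2626 of all 20719 genes. The 3 that rose were Psmd9 at 0.86 (SE 0.11), Psmd12 at 0.63 (SE 0.11) and Psmc3 at 0.52 (SE 0.11) (limma adjusted p = 0.00535, 0.0213 and 0.0395). The count was 1, Psmd9, without WT fed F2, WT starved S3 or WT starved S4, and 8 without WT starved replicate 3. Counts over all genes moved the same way, from 137 that rose and 155 that fell. They were 44 and 63 without F2, 73 and 86 without S3, 33 and 31 without S4 and 396 and 263 without replicate 3. In KO liver, Psmd9 rose by 0.76 (SE 0.11) (limma adjusted p = 0.00968) and 0 fell, against 0.487% and 0.536% of all genes. Here 9 of the 42 and 1932 of all 20719 genes had an unadjusted limma p under 0.05. Without KO fed F5 none of the 42 passed, and over all genes 25 rose and 20 fell, against 101 and 111 with it. The median over the 42 genes was 0.33 in WT and 0.17 in KO liver. Within wide and narrow arrays it was 0.38 and 0.29 in WT, and 0.20 and 0.21 in KO liver.

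The responses of both genotypes, which share no array, were alike across genes. Array spread was unbalanced in the same way in both. Wide arrays were F1 among fed and S3 and S4 among starved WT mice, and F6, S6 and S7 in the same order among KO mice. The part of spread in this likeness was not tested. Of the 42 genes, 40 differed in the same direction, and the differences correlated with Pearson r = 0.905 and Spearman rho = 0.912, against 0.729 and 0.571 over all genes; genes of 1 array are not independent, and this is a description. The exceptions were Psma1 (0.30 in WT, -0.02 in KO) and Psma4 (0.04 and -0.23). For 34 of the 42 the difference was larger in WT, as it was for 11120 of all 20719 genes. The median of the KO minus WT response was -0.14 over the 42, with a median SE of 0.24 for a gene, and -0.02 over all genes. No gene of the 42 passed for this interaction and none had an unadjusted p under 0.05; over all genes 0% passed and 422 had an unadjusted p under 0.05. The median over the 42 was -0.08 without WT fed F2 and -0.21 without WT fed F4. For Psmd9 the interaction was -0.10 (SE 0.16) with a 95% confidence interval of -0.45 to 0.24, and for Psmb10 -0.05 (SE 0.31), -0.72 to 0.63. The interval of Psmc3, -0.64 to 0.02, and that of Psmd2, -1.28 to 0.44, reached as far as or past the size of their averaged starvation differences, so a weaker response in KO liver could not be told from an equal one.

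**Figure D5:**
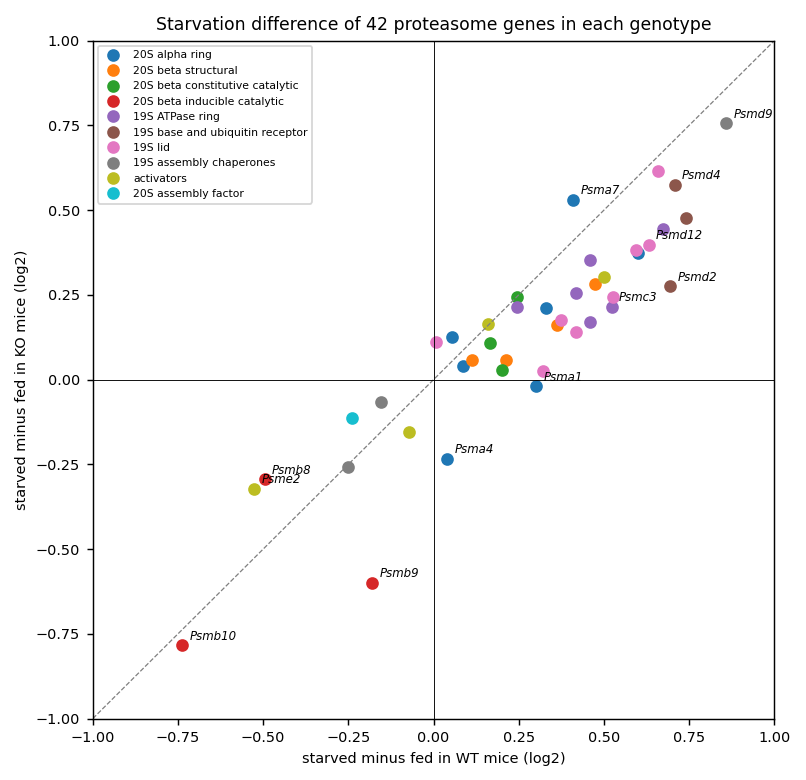
Difference between starved and fed liver in WT (horizontal axis, log2) and in KO mice (vertical axis, log2) for 42 genes, coloured by subcomplex; the dashed line marks equal differences. Most points lie below the line, Psmd9 is at the upper right with 0.86 and 0.76, and Psmb10 at the lower left with -0.74 and -0.78.

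None of these genes passed for genotype. KO against WT gave 0 of 42 in fed liver, 0 in starved liver and 0 averaged over feeding states, where 0%, 0% and 0% of all genes passed (limma). At an unadjusted limma p under 0.05 there were 0, 1 and 1 of the 42, against 603, 744 and 963 of all 20719 genes. In the starved and the averaged contrast the gene was Psmd9, lower in KO by 0.25 in starved liver (SE 0.11, limma adjusted p = 1) and by 0.20 averaged (SE 0.08). The 3 starved KO values of Psmd9, at most 8.69, were below the 3 starved WT values, at least 8.76. The same held for Psmd7, so for 2 of the 42, and for 1306 of all 20719 genes. Every starved KO value was above every starved WT value in 0 of the 42 and in 727 of all genes. In fed liver 36 of the 42 differences were above 0, with a median of 0.11, and in starved liver 17 were, with a median of -0.03. Over all 20719 genes, 9512 and 8482 were above 0, with medians of -0.01 and -0.03. The largest fed difference was that of Psma5, 0.27 (SE 0.14), with a 95% confidence interval of -0.04 to 0.57.

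Genes that act with the proteasome were read from 3 companion lists. Of 21 measured assembly factors and associated proteins, 0 fell with averaged starvation, and the list median was 0.33. Among those that rose was Adrm1, a ubiquitin receptor of the cap, by 0.39 (SE 0.09, limma adjusted p = 0.0303). Differences over the list ran from -0.29 for Shfm1, a small lid subunit, to 0.66 for AI314180, the symbol used for Ecm29. The 4 measured chaperones of alpha ring assembly, Psmg1 to Psmg4, gave -0.04, -0.14, -0.11 and -0.22, and none passed. None of 8 regulators passed; the median was 0.25, and Nfe2l1, the factor named above, gave 0.37 (SE 0.24) and Ddi2, the protease that activates it, 0.54 (SE 0.29; limma adjusted p = 0.475 and 0.371), while Mafk was lowest at -0.01. Of 10 genes of ubiquitin supply and the unfoldase VCP none passed, with a median of 0.22, from -0.15 for Rps27a to 0.93 for Ube4b, a ubiquitin chain elongation factor (SE 0.34, limma adjusted p = 0.167).

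Markers of other liver cells were read for the same contrast. None of 7 sinusoidal endothelium and none of 6 neutrophil markers passed, of 6 stellate cell markers Pdgfrb fell by 0.30 (SE 0.07, limma adjusted p = 0.0312), and of 6 red blood cell markers the erythroid enzymes Car1 and Alas2 had differences of -1.78 (SE 0.31) and -1.30 (SE 0.13) and fell (limma adjusted p = 0.00712 and 0.000266). Differences of the other 4 red cell markers were above 0, up to 0.315, and the list median was 0.05. The mean level of the 6 red cell markers, with Car1 and Alas2 among them, was 9.71 to 9.90 in WT fed, 8.75 to 9.47 in WT starved, 9.51 to 9.90 in KO fed and 9.35 to 9.81 in KO starved mice. Whether a change in these cells bears on the proteasome genes was not tested.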

How the data were processed

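The authors deposited 1 log2 value per probe set and array. The submitters' processing notes name RMA, the package oligo and limma. RMA subtracts background, brings all arrays to 1 distribution by quantiles and combines the probes of each set, which removes any shift shared by all genes. Neither tool versions nor an array model or genome build is given in the sources used here. Whole-transcript kits labelled the RNA, per the labels' protocols.

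Of 28944 probe sets, 5132 had no symbol. Where a symbol had several, that with the highest 12-array mean was kept, leaving 20719 genes. Sample titles gave the groups; 1 starved WT mouse, called replicate 3 here, has a title code without the S of the others and was left where its title puts it. The limma fit (version 3.58.1, R 4.3.3) had 4 group means, equal weights and no covariate. Each of 7 contrasts was adjusted by the Benjamini-Hochberg method across all genes and called under 0.05. Precision is limited by the number of arrays. Equal title numbers joined different mice, so they were not taken as pairs. Deviations of same-numbered arrays from their group means correlated at -0.172 for F4 (narrow) and S4 (wide). They correlated at 0.454 for F5 and S5, both narrow, and at 0.532 for F6 and S6, both wide. The part of array spread in these correlations was not tested.

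Members, subcomplexes, 4 companion lists and 7 marker lists (108 of 112 entries measured) were chosen with earlier results of these data known. Named genes were members called in any contrast, the extremes of each subcomplex, all catalytic subunits, activators and Pomp, companions called or with extreme differences, and other members by value; Nfe2l1, Irf1, Ifit1 and Psmg1 to Psmg4 were added after their values were seen. A companion gene past the threshold is not reported here. Promoters came from RefSeq, GRCm38.p6. Alternatives covered probe set choice, filters, normalization, weights, priors, blocks and left-out arrays. Figures were drawn with matplotlib 3.10.9.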

Additional observations from a re-analysis of the deposited data

How the results depend on the processing

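Of 1742 values of named members under alternatives, 1635 kept their side of the threshold, 72 crossed into it, 35 out of it and 0 changed sign while called. The causes of the moves below were not tested. In WT liver the count of members past the threshold was 3, and became 5 with the mean of a symbol's probe sets, 18 with array weights, 1 with a trended and robust prior, 0 with only the 2 groups compared, which have fewer samples, and 16 with array spread as a block; leaving out 1 array gave 1 to 8. In KO liver it was 1, and became 0 with cyclic loess, 19 with array weights and 5 with array spread as a block; leaving out 1 array gave 0 to 1. For averaged starvation it was 8, and became 27 with array weights, 20 with array spread as a block and 2 within narrow arrays; leaving out 1 array gave 7 to 12. Over all 20719 genes, array weights called 2726 higher and 2874 lower in WT, 3419 and 4220 in KO and 4145 and 5354 averaged. The main fit called 137 and 155, 101 and 111, and 481 and 589 in the same order. With array spread as a block these were 557 and 668, 406 and 475, and 980 and 1255. With array weights the median member difference was 0.15 instead of 0.25. Psmd9 then passed as lower in KO averaged over feeding, a count of 1 against 0, where 67 of all genes were higher and 103 lower. These weights ran from 0.206 for WT starved replicate 3 to 6.143 for KO fed F5. The title number as a random replicate block (consensus correlation 0.0226) left 3, 1 and 8 members past the threshold and changed no call. Both KO minus WT contrasts, fed and starved, and the interaction gave 0 under every alternative run. Signal over background was not used here, so dim probe sets cannot be told from absent ones, and 3 mice a group leave a median SE of 0.17 for a member's difference.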
